A study of Mus musculus with 12 samples.

Results

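Proteasome genes were followed in the tibialis anterior muscle, a fast muscle of the lower leg, of dystrophic and wild-type mice. Members were taken by gene symbol: every gene of the deposited table named Psma to Psmg with a number, together with the proteasome activators Psme1 to Psme4. Of 49 matching genes among the 30239 in the table, 47 reached an FPKM (fragments scaled by gene length and by the mapped total) of at least 1 in at least 4 of the 12 libraries. Those not kept were Psma8, a testis subunit with a highest FPKM of 0.128, and Psmb11, a thymus subunit with a highest FPKM of 0.0115. The 47 members were 14 genes of the 20S core, 17 genes of the 19S particle, 5 immunoproteasome genes, 3 chaperones of 19S assembly, 4 chaperones of 20S assembly, 3 further activators or inhibitors, and Psme2b, a near copy of Psme2. Psmb9 passed through the mutants alone, with an FPKM of at least 1 in 2 DMD-Null, 4 mdx and 0 WT libraries. The other 46 members passed in all 12 libraries.

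The proteasome is the large protease that degrades ubiquitin-tagged proteins. Its barrel-shaped 20S core holds the active sites on beta subunits between outer rings of alpha subunits, and the 19S particle, with a base that carries ATPases and a lid, binds, unfolds and feeds substrates into it. Under interferon-gamma, and at rest in immune cells, the catalytic subunits Psmb8, Psmb9 and Psmb10 replace Psmb5, Psmb6 and Psmb7, and the activator formed by Psme1 and Psme2 docks on the core, a form called the immunoproteasome, which favours peptides for MHC class I. In skeletal muscle the proteasome removes myofibrillar proteins during atrophy, and dystrophic muscle is infiltrated by macrophages that carry immunoproteasomes.

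The study sequenced poly(A) RNA of tibialis anterior from naive mice aged 6 months. The groups were DMD-Null (4 libraries), mdx (4 libraries) and WT (4 libraries), and the labels set each mutant beside WT. The mdx mouse carries a nonsense mutation in Dmd, the dystrophin gene; the labels give neither the allele of the DMD-Null mice nor the strain or sex of any group. The labels do not say whether each library is a different mouse, so every p-value is measured against the spread of these samples, which may be technical.

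Total counts per library lay between 60693078 and 68054627. Dmd had 71 to 164 reads in DMD-Null libraries, 713 to 1254 in mdx libraries and 412 to 3597 in WT libraries. Within WT, the libraries labelled WT 1 and WT 3 had 542 and 412 Dmd reads, below every mdx library, while WT 2 and WT 4 had 3597 and 2446. WT 1 and WT 3 also stood apart across all genes: their log2 values correlated at r = 0.980 with each other and at 0.866 to 0.922 with WT 2 and WT 4, their TMM scaling factors (edgeR's correction of library totals for composition) were 0.695 and 0.698 against 0.952 to 1.18 in the other 10 libraries, and mitochondrial genes took 4.96% and 6.57% of their counts against 9.31% to 19.3%. Within these libraries, counts relative to the 12-library mean increased with the GC content of the transcript (Spearman rho across genes 0.679 in WT 1 and 0.629 in WT 3), as they did in DMD-Null 4 (0.461), while the other 9 libraries lay between -0.603 and -0.0872. Each comparison with WT is therefore given with all 12 libraries and again without WT 1 and WT 3; both mutants share the same WT libraries, so their comparisons with WT are not independent.

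The promoters of 4 members are shown because 3 of them (Psme1, Psma5 and Psmd5) carried the calls common to both mutants and Psme2 is the partner of Psme1 in the same activator. Each window is 300 bases, 250 before and 50 after the RefSeq start, 5′ to 3′ on the gene's strand, on GRCm38.p6: Psme1 at chr14:55578244-55578543 on the plus strand, inside the gene's deposited span, Psme2 at chr14:55591052-55591351 on the minus strand, Psma5 at chr3:108256676-108256975 on the plus strand and Psmd5 at chr2:34870913-34871212 on the minus strand. Capitals mark, in Psme1, a match to the core of the interferon-stimulated response element, searched as GAAA, 2 bases of any kind and GAAA, and in the others a match to the core of the antioxidant response element, searched as TGANNNNGC, both on either strand. The antioxidant response element is the site of Nfe2l1 and Nfe2l2, transcription factors that drive proteasome genes in stress.
Psme1: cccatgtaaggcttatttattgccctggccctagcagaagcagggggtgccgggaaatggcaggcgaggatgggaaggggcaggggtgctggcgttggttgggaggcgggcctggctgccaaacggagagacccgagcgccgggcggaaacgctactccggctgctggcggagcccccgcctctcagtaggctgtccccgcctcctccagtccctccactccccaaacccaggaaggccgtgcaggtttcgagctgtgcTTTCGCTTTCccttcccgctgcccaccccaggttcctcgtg
Psme2: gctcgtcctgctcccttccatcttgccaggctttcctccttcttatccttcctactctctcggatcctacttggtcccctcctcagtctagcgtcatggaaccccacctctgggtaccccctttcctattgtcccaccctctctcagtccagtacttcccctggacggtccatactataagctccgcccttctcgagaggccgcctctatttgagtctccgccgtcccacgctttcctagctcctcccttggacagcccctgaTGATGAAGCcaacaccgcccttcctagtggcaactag
Psma5: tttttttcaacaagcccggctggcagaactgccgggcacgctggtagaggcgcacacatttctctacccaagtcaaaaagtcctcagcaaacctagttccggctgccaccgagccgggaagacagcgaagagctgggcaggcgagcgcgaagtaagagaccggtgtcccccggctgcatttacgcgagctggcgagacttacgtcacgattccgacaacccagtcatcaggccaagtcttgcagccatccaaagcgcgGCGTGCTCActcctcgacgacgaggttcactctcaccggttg
Psmd5: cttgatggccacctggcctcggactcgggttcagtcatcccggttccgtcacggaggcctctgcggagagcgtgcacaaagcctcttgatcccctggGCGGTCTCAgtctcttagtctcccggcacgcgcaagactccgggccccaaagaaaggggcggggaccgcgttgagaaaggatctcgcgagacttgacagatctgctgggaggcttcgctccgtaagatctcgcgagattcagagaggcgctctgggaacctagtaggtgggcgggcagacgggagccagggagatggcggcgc
RefSeq windows were matched for 40 of the 47 members. TGANNNNGC occurred in 22 of them (55.0%), against 45% of the windows of all 27025 genes, and the interferon-stimulated core in 5 (12.5%), against 3.99% of all genes. The other members with that core were Psmb3, Psmd4, Psmd9 and Psmg4. CCAAT, the box bound by NF-Y, occurred in 32.5% of members and 41.1% of all genes; TTCNNNGAA, the gamma-activated site of STAT factors, in 7.5% and 9.55%, Psmb8 among the members; and the kappa B core, searched as GGGA, 4 bases of any kind and CC, in 25.0% and 22.9%. These are matches of letters, and no binding was measured.

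Most proteasome genes did not pass the test in either mutant. In mdx muscle, Psma5 (an alpha subunit of the core) and Psmd5 (a chaperone of the 19S base) rose, while Psme1 (a subunit of the interferon-inducible activator) and Psmd3 (a lid subunit) fell relative to WT. In DMD-Null muscle, Psma5 and Psmd5 rose and Psme1 fell. Between DMD-Null and mdx muscle no member passed. The test was edgeR's quasi-likelihood test over all 11376 genes, with a call at an adjusted p under 0.05. In mdx against WT, 4 of 47 members were called (2 higher, 2 lower), where 35.2% of all tested genes were called, 15% higher and 20.1% lower. In DMD-Null against WT, 3 of 47 were called (2 higher, 1 lower), where 28.5% of all tested genes were, 12.9% higher and 15.6% lower. The members' shares are thus below those of all genes. The median log2 fold change of the 47 members was -0.094 in mdx and -0.13 in DMD-Null, beside 0.0028 and 0.014 for all genes tested.

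Which direction the members leaned to depended on the scaling. Scaling by library totals alone moved the median of all genes by 0.42 (mdx) and 0.44 (DMD-Null) on the log2 scale and gave 9 members higher and 0 lower in mdx, where 29.4% of all genes were higher and 6.21% lower, and 11 higher and 1 lower in DMD-Null, where 29.5% of all genes were higher and 5.05% lower. With limma on log2(FPKM + 1), where the median of all genes was 0.35 and 0.36, 25 members were higher and 0 lower in mdx (all genes 44.4% and 5.91%) and 21 higher and 1 lower in DMD-Null (all genes 43.6% and 4.97%). Offsets fitted to GC content gave 0 higher and 14 lower in mdx (all genes 17.3% and 26.7%) and 0 higher and 7 lower in DMD-Null (all genes 16.4% and 22.6%). The members' medians under library totals, 0.34 and 0.32, were below those of all genes, as they were under TMM. Single libraries also set the count. Without WT 2 it was 21 in mdx (6 higher, 15 lower), where 60.4% of all genes were called (29.8% higher, 30.6% lower), and 22 in DMD-Null (6 higher, 16 lower), where 56.3% were (28.2% higher, 28.1% lower). Without WT 4 it was 11 in mdx and 9 in DMD-Null, where 39.5% and 33.1% of all genes were called, and without DMD-Null 2 the count in DMD-Null was 1, where 15% were. With WT 1 and WT 3 left out, 2 members were called in mdx, Psma5 and Psmb8, both higher, where 23.3% of all genes were called (12.4% higher, 10.9% lower). In DMD-Null 3 were called, Psmb8 higher and Psme1 and Psme4 lower, where 21.9% of all genes were called (12% higher, 9.84% lower).

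**Figure D1:**
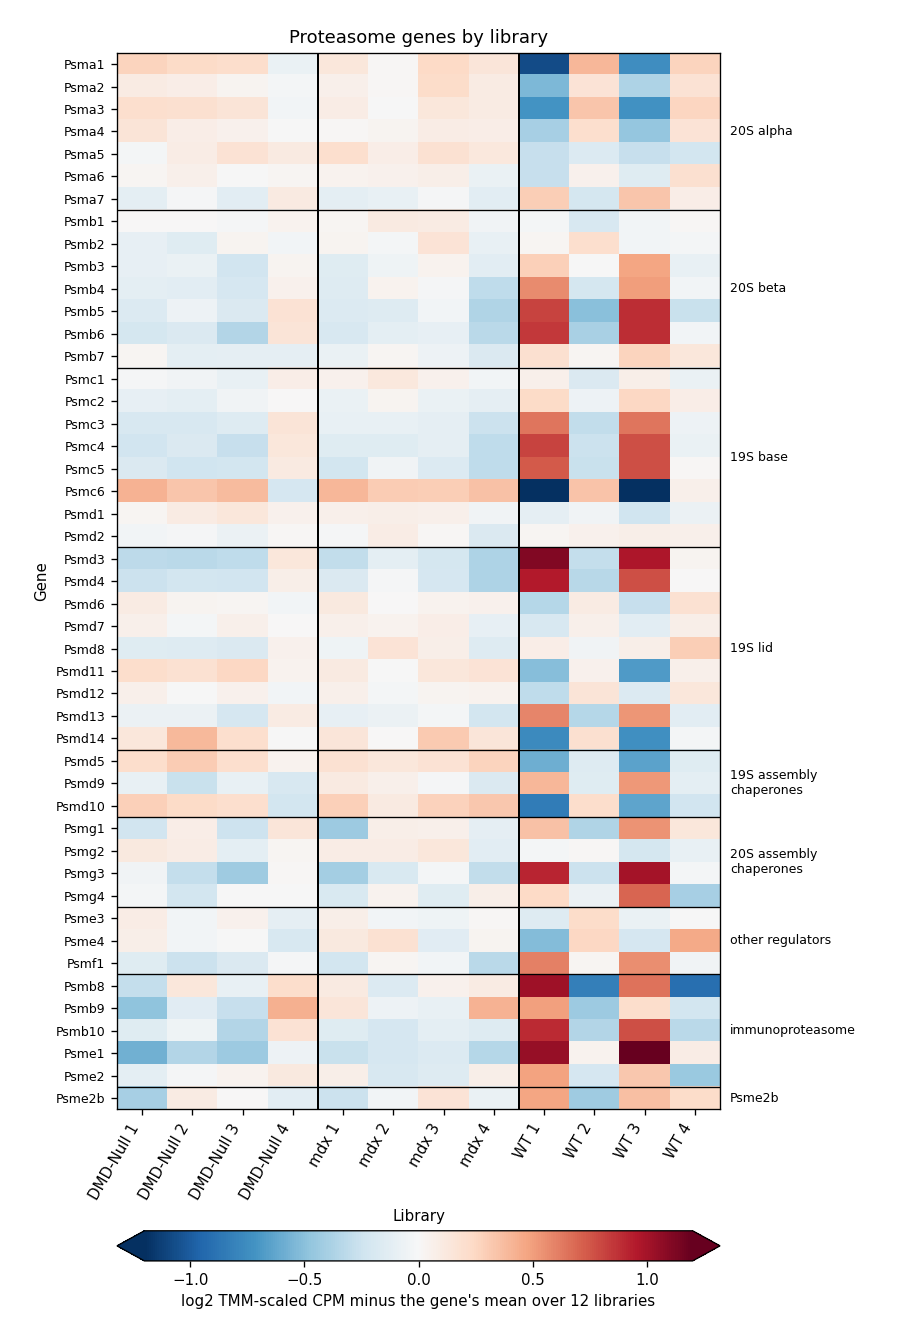
Level of each of the 47 members (down the page, grouped by role) in each of the 12 libraries (across), as log2 TMM-scaled CPM minus the gene's mean over the 12 libraries; red is above and blue below that mean. The strongest colours stand in WT 1 and WT 3, where members such as Psmb5, Psmd3 and Psme1 were high and Psma1 and Psmc6 were low, while among the 8 mutant libraries DMD-Null 4 stands apart for members such as Psmc6 (68.9 CPM, against 97.2 to 106 in the other 7).

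**Figure D2:**
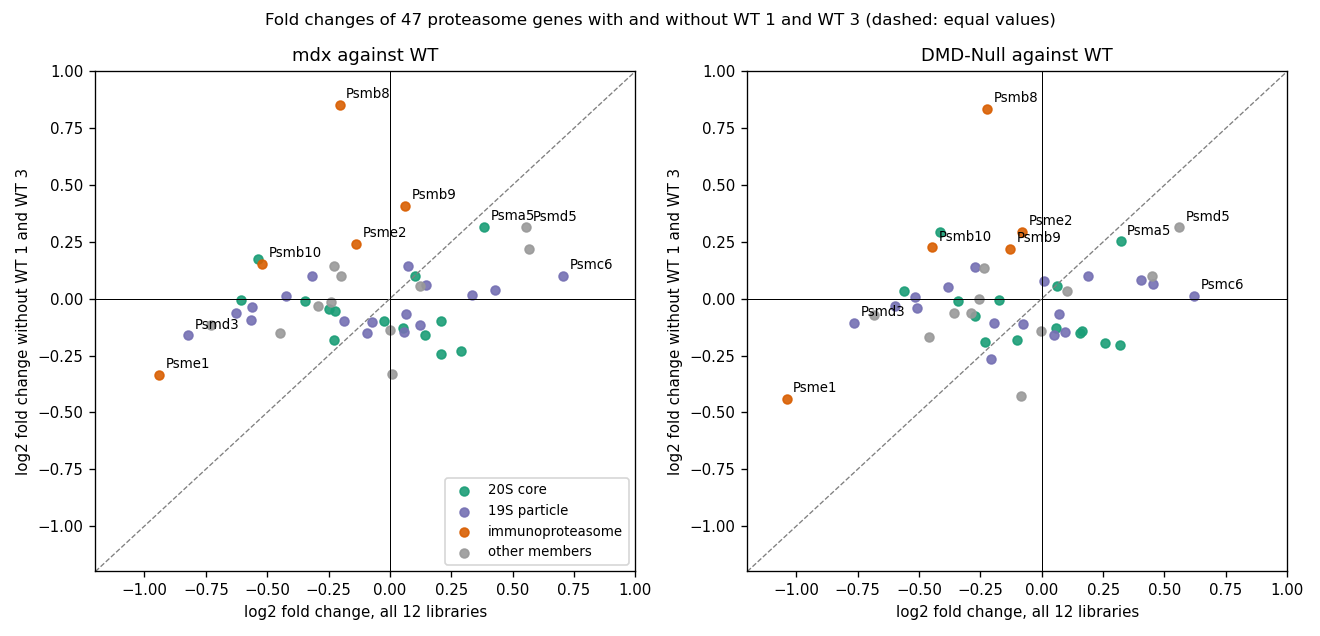
Log2 fold change of each member without WT 1 and WT 3 (vertical axis) against the value with all 12 libraries (horizontal axis), for mdx against WT and DMD-Null against WT; colours give the role and the dashed line marks equal values. The members spread from -0.94 to 0.70 (mdx) and from -1.04 to 0.62 (DMD-Null) along the horizontal axis and, except for Psmb8, from -0.34 to 0.41 and from -0.44 to 0.31 along the vertical axis; Psme1 is the lowest on the horizontal axis in both panels, and Psmb8 lies below 0 on the horizontal axis and at 0.85 (mdx) and 0.83 (DMD-Null) on the vertical axis.

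Levels in the text below are TMM-scaled CPM, a gene's reads as a share of the library total corrected by its TMM factor, unless FPKM is named. CPM serves to compare 1 gene between libraries, and FPKM, which allows for gene length, to compare genes. These are whole-muscle values, in which a change in the number of cells of a type and a change in RNA per cell cannot be told apart.

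Among the 14 subunits of the 20S core, 1 rose and 0 fell in each mutant, and the other 13 did not pass the test; the median log2 fold change was 0.016 in mdx and -0.022 in DMD-Null. Per length, the core subunits spanned 15.3 (Psma2) to 148 FPKM (Psmb5) in DMD-Null, 15.9 to 136 FPKM in mdx and 10.3 to 134 FPKM in WT, as means of 4 libraries, with Psma2 lowest and Psmb5 highest in each. The alpha subunits, which form the gated outer rings, had medians of 0.21 (mdx) and 0.16 (DMD-Null), and the beta subunits, which include the active sites, had medians of -0.25 and -0.27. Leaving out WT 1 and WT 3 gave alpha medians of -0.13 and -0.14 and beta medians of -0.0099 and -0.011, so the opposite lean of alpha and beta subunits rested on those libraries.

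Psma5 (ENSMUSG00000068749, chr3:108256926-108279974 on the plus strand) is an alpha subunit of the core ring, and its promoter is printed above. It had 37.9, 41.0, 43.4 and 41.7 CPM in the 4 DMD-Null libraries, 44.3, 40.9, 43.8 and 42.2 CPM in the mdx libraries and 32.0, 34.4, 31.9 and 33.0 CPM in the WT libraries. Every mutant library was above every WT library, and the 4 WT libraries lay close together after TMM scaling. In FPKM they were split, with 14.59 in WT 1 and 14.67 in WT 3 against 21.7 in WT 2 and 20.95 in WT 4. The log2 fold change was 0.38 ± 0.098 (SE; edgeR adjusted p = 0.0134) in mdx and 0.32 ± 0.098 (edgeR adjusted p = 0.0309) in DMD-Null. When WT 1 and WT 3 were left out it was 0.31 in mdx, still called (edgeR adjusted p = 0.0337), and 0.25 in DMD-Null, no longer called (edgeR adjusted p = 0.0813). With GC-fitted offsets it was 0.20 and 0.17, and neither passed (edgeR adjusted p = 0.062 and 0.119). The DMD-Null call was also lost when any 1 of DMD-Null 2, DMD-Null 3, DMD-Null 4, WT 1 or WT 3 was left out (edgeR adjusted p = 0.0713 to 0.0915).

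Psma7, another alpha subunit, averaged 75.1 ± 5.7 CPM in DMD-Null, 72.5 ± 2.68 in mdx and 84.8 ± 14.2 in WT (SD, n = 4 each), with log2 fold changes of -0.23 ± 0.13 (SE) in mdx and -0.18 ± 0.13 in DMD-Null (edgeR adjusted p = 0.185 and 0.307). The other 5 alpha subunits had log2 fold changes of 0.055 (Psma6) to 0.29 (Psma1) in mdx and 0.059 (Psma6) to 0.32 (Psma1) in DMD-Null, and none passed. Psma1 varied widely within WT: it had 67.6, 65.7, 65.2 and 53.1 CPM in DMD-Null, 61.7, 56.7, 66.3 and 62.1 in mdx and 26.6, 74.3, 33.4 and 67.5 in WT. The libraries WT 1 and WT 3 were below all mutant libraries and WT 2 was above them.

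The constitutive catalytic subunits are Psmb5 (chymotrypsin-like activity), Psmb6 (caspase-like) and Psmb7 (trypsin-like). Psmb5 had 124, 134, 123 and 157 CPM in DMD-Null, 124, 125, 136 and 109 in mdx and 244, 98.7, 258 and 116 in WT. Of the WT libraries, WT 1 and WT 3 were above every mutant library and WT 2 was below them all. It differed from WT by -0.54 ± 0.28 (SE) on the log2 scale in mdx and -0.41 ± 0.28 in DMD-Null (edgeR adjusted p = 0.135 and 0.248), and 0.17 and 0.29 once WT 1 and WT 3 were dropped, neither called (edgeR adjusted p = 0.414 and 0.167). Psmb6 had 104, 107, 94.5 and 134 CPM in DMD-Null, 106, 111, 113 and 96.3 in mdx and 217, 91.9, 223 and 118 in WT, the same split of the WT libraries. For Psmb6 the log2 fold change was -0.61 ± 0.25 in mdx and -0.56 ± 0.25 in DMD-Null (edgeR adjusted p = 0.0784 and 0.108), and -0.0064 and 0.035 without those WT libraries.

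Psmb7 was the catalytic subunit whose groups did not overlap after TMM scaling. It had 169.4, 153.3, 154.4 and 154.5 CPM in DMD-Null, 157.4, 169.6, 159.3 and 147.5 in mdx and 189.8, 169.6, 200.1 and 183.0 in WT. Every WT library was above every mutant library, although WT 2 and mdx 2 are equal at the digits printed and WT 2 is close to DMD-Null 1. The log2 fold change of -0.23 ± 0.11 (SE) in each mutant did not pass (edgeR adjusted p = 0.102 in mdx and 0.107 in DMD-Null). With GC-fitted offsets it did, at -0.45 and -0.43 (edgeR adjusted p = 0.0104 and 0.015). The direction depended on the scaling. With library totals alone it was 0.21 in each mutant (edgeR adjusted p = 0.144 in mdx and 0.145 in DMD-Null). In limma on log2(FPKM + 1) it was 0.24 in each (limma adjusted p = 0.0786 and 0.0843). Mean FPKM of Psmb7 was lower in WT (38.79) than in DMD-Null (45.75) and mdx (45.85). Members without overlap against WT numbered 2 higher and 2 lower in mdx, where 30.7% of all genes had none (16.0% higher, 14.7% lower), and 3 higher and 3 lower in DMD-Null, where 21.8% had none (11.6% higher, 10.1% lower). Beside Psmb7 and the members called, those in DMD-Null were Psmd1 (higher) and Psmd2 (lower), named after their values were seen. The other beta subunits, Psmb1 to Psmb4, had log2 fold changes of -0.34 (Psmb4) to 0.10 (Psmb1) in mdx and -0.34 (Psmb4) to 0.062 (Psmb1) in DMD-Null. Psmb2, of which 4 libraries a group averaged 49.1 ± 2.66 CPM in DMD-Null, 51.9 ± 3.93 in mdx and 52.7 ± 4.13 in WT (SD), had the smallest p of the beta subunits between the mutants, with a log2 difference of -0.081 ± 0.11 (SE; edgeR adjusted p = 1).

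Among the 17 genes of the 19S particle, 0 rose and 1 fell in mdx, and 0 passed in DMD-Null, where 6 had an unadjusted p under 0.05 and DESeq2 called 3 lower. In DMD-Null against WT, 28.5% of all tested genes passed in edgeR even after adjustment, so neither count is a result about the 19S particle. The median log2 fold change was -0.071 in mdx and -0.078 in DMD-Null. Per length the genes spanned 14.8 (Psmd11) to 83.7 FPKM (Psmc5) in DMD-Null, 14.1 to 80.7 FPKM in mdx and 8.41 to 82.8 FPKM in WT. Of the base, the ATPases Psmc4 and Psmc5 had the smallest p in both mutants. Psmc5 had 114, 109, 110 and 139 CPM in DMD-Null, 110, 125, 115 and 104 in mdx and 214, 107, 221 and 130 in WT. For Psmc5 the log2 fold change was -0.56 ± 0.21 (SE) in mdx and -0.51 ± 0.21 in DMD-Null (edgeR adjusted p = 0.0579 and 0.0902), and -0.093 and -0.04 without WT 1 and WT 3. Psmc4 averaged 90.6 ± 12.3 CPM in DMD-Null, 87.8 ± 5.31 in mdx and 129.6 ± 48.2 in WT (SD, n = 4 each), with log2 fold changes of -0.56 ± 0.23 and -0.52 ± 0.23 (SE; edgeR adjusted p = 0.0705 in mdx and 0.102 in DMD-Null).

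Psmc6, an ATPase with the most AT-rich transcript of all members (37.0% GC), leaned the other way. It had 106, 99.7, 103 and 68.9 CPM in DMD-Null, 105, 97.5, 97.2 and 101 in mdx and 32.0, 101, 30.2 and 82.8 in WT. Both WT 1 and WT 3 were below all mutant libraries, whereas WT 2 and WT 4 lay among them. The log2 fold change of 0.70 ± 0.34 (SE) in mdx and 0.62 ± 0.34 in DMD-Null missed the threshold (edgeR adjusted p = 0.118 and 0.173) and was 0.10 and 0.011 without those libraries. Psmc6 was named after its values were seen. The ATPase Psmc1 was steady, at 119 ± 5.98 CPM in DMD-Null, 124 ± 5.7 in mdx and 118 ± 9.55 in WT (SD, n = 4 each), with log2 fold changes of 0.074 ± 0.10 and 0.009 ± 0.10 (SE; edgeR adjusted p = 0.574 in mdx and 0.949 in DMD-Null). The scaffold subunits Psmd1 and Psmd2 averaged 126 ± 4.48 and 245 ± 6.09 CPM in DMD-Null, 123 ± 4.39 and 246 ± 18.9 CPM in mdx and 111 ± 6.68 and 258 ± 3.01 CPM in WT. Their log2 fold changes were 0.15 and -0.071 in mdx and 0.19 and -0.078 in DMD-Null.

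Psmd3 (ENSMUSG00000017221, chr11:98682554-98695979 on the plus strand), a lid subunit with the most GC-rich transcript of all members (58.3% GC), had 138, 137, 139 and 188 CPM in DMD-Null, 140, 158, 148 and 132 in mdx and 369, 140, 336 and 176 in WT. Libraries WT 1 and WT 3 were far above all mutant libraries, and WT 2 lay among them. The difference on the log2 scale was -0.82 ± 0.27 (SE) in mdx, which passed (edgeR adjusted p = 0.0361), and -0.76 ± 0.27 in DMD-Null, where the test was missed (edgeR adjusted p = 0.0535). The mdx call was lost when any 1 of the 4 mdx libraries, WT 1 or WT 3 was left out (edgeR adjusted p = 0.0609 to 0.101), and without both WT libraries the value was -0.16 in mdx and -0.10 in DMD-Null (edgeR adjusted p = 0.516 and 0.7).

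Psmd4, a ubiquitin receptor listed here with the lid, averaged 135 ± 15.3 CPM in DMD-Null, 132 ± 13.4 in mdx and 204 ± 82.4 in WT (SD, n = 4 each), with log2 fold changes of -0.63 ± 0.24 (SE) in mdx and -0.60 ± 0.24 in DMD-Null (edgeR adjusted p = 0.062 and 0.0832). Psmd8, a lid subunit, averaged 194 ± 14.8 CPM in DMD-Null, 209.6 ± 20.2 in mdx and 224 ± 22.2 in WT, with log2 fold changes of -0.094 ± 0.12 and -0.21 ± 0.12 (SE; edgeR adjusted p = 0.535 in mdx and 0.199 in DMD-Null). Psmd14, the deubiquitinase of the lid, had log2 fold changes of 0.43 ± 0.21 and 0.46 ± 0.21 (edgeR adjusted p = 0.119 in mdx and 0.113 in DMD-Null), and 0.04 and 0.066 without WT 1 and WT 3. The other 5 lid genes had values of -0.32 (Psmd13) to 0.33 (Psmd11) in mdx and -0.27 to 0.40 in DMD-Null, for the same genes. With WT 1 and WT 3 left out, 0 of 17 genes of the 19S particle passed in either mutant, 0 had an unadjusted p under 0.05, and the values lay between -0.16 and 0.14 in mdx and between -0.27 and 0.14 in DMD-Null.

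Of the 10 assembly chaperones and other regulators, Psmd5 rose in both mutants and the other 9 did not pass in either. Psmd5 (ENSMUSG00000026869, chr2:34849734-34874968 on the minus strand) binds the ATPase ring during assembly of the 19S base, and its promoter is printed above. It had 24.0, 25.6, 23.8 and 21.2 CPM in DMD-Null, 23.5, 22.7, 23.3 and 24.8 in mdx and 13.8, 18.6, 13.2 and 18.6 in WT. Every mutant library was above every WT library, and WT 1 and WT 3 were the lowest of all. The log2 fold change was 0.56 ± 0.14 (SE) in mdx and 0.56 ± 0.14 in DMD-Null (edgeR adjusted p = 0.0133 and 0.0147). When WT 1 and WT 3 were left out it was 0.31 in each mutant (edgeR adjusted p = 0.0518 and 0.0537), and with GC-fitted offsets 0.081 and 0.15 (edgeR adjusted p = 0.571 and 0.308). The DMD-Null call was also lost without DMD-Null 2 (edgeR adjusted p = 0.0512).

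Psmd10, gankyrin, a chaperone of the base known also as an oncoprotein, had 9.46, 9.12, 8.98 and 6.68 CPM in DMD-Null, 9.49, 8.39, 9.46 and 9.74 in mdx and 4.35, 9.01, 5.03 and 6.63 in WT. The WT 1 and WT 3 values were again lowest, and WT 2 lay among the mutants. Log2 fold changes of 0.57 ± 0.22 (SE) in mdx and 0.45 ± 0.22 in DMD-Null missed the threshold (edgeR adjusted p = 0.0589 and 0.127). Psmd9, the third base chaperone, averaged 19.4 ± 1.14 CPM in DMD-Null, 21.7 ± 1.79 in mdx and 24.9 ± 5.91 in WT (SD, n = 4 each), with log2 fold changes of -0.20 ± 0.16 and -0.36 ± 0.16 (SE; edgeR adjusted p = 0.332 in mdx and 0.112 in DMD-Null).

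The Psmg genes encode chaperones that pair up to build the alpha ring. Psmg3 had 7.75, 6.55, 5.92 and 8.06 CPM in DMD-Null, 6.01, 7.02, 7.86 and 6.48 in mdx and 15, 6.68, 15.9 and 7.84 in WT, so only WT 1 and WT 3 were outside the range of the mutants. Psmg3 had a log2 fold change of -0.73 ± 0.27 (SE) in mdx and -0.68 ± 0.27 in DMD-Null (edgeR adjusted p = 0.0505 and 0.0716), and -0.12 and -0.07 without those libraries. Psmg1 averaged 7.29 ± 1.04 CPM in DMD-Null, 7.12 ± 1.1 in mdx and 8.72 ± 2.16 in WT (SD, n = 4 each), with log2 fold changes of -0.29 ± 0.20 and -0.26 ± 0.20 (SE; edgeR adjusted p = 0.26 in mdx and 0.332 in DMD-Null). Psmg2 and Psmg4 had 0.12 and -0.23 in mdx and 0.10 and -0.23 in DMD-Null.

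The remaining regulators cap or block the core. Psme3, the nuclear activator PA28 gamma, averaged 59.4 ± 3.65 CPM in DMD-Null, 59.4 ± 2.22 in mdx and 59.5 ± 6.92 in WT (SD, n = 4 each), with log2 fold changes of -0.00057 ± 0.11 in mdx and -0.0019 ± 0.11 in DMD-Null (SE; edgeR adjusted p = 0.997 and 0.99). Psme4, the PA200 activator, had 176, 163, 167 and 146 CPM in DMD-Null, 181, 191, 152 and 171 in mdx and 117, 199, 146 and 230 in WT. WT libraries lay on both sides of the mutants, WT 1 and WT 3 at the low end. Psme4 had log2 fold changes of 0.0079 ± 0.19 in mdx and -0.083 ± 0.19 in DMD-Null (SE; edgeR adjusted p = 0.975 and 0.738). Leaving out WT 1 and WT 3 gave -0.33 (edgeR adjusted p = 0.0679) and -0.43 (edgeR adjusted p = 0.026), so that Psme4 was called lower in DMD-Null. Psmf1, the inhibitor PI31, averaged 18.0 ± 1.3 CPM in DMD-Null, 18.2 ± 2.04 in mdx and 24.8 ± 5.76 in WT, with log2 fold changes of -0.45 ± 0.17 and -0.46 ± 0.17 (SE; edgeR adjusted p = 0.0567 in mdx and 0.0592 in DMD-Null), and -0.15 and -0.17 without those libraries.

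Among the 5 immunoproteasome genes, Psme1 fell in both mutants and the other 4 did not pass in either. The median log2 fold change was -0.20 in mdx and -0.22 in DMD-Null with all libraries, and 0.24 and 0.23 without WT 1 and WT 3. Per length, all 5 were below each of the 14 core subunits in DMD-Null and mdx; in WT 4 of them were, while Psme1 was above 4 core subunits, Psma1, Psma2, Psma3 and Psmb1. Mean FPKM ran from 1.08 (Psmb9) to 12 (Psme1) in DMD-Null, 1.24 to 12.9 in mdx and 0.83 to 17.0 in WT. In each group Psmb9 was lowest and Psmb8 next, at 2.92 FPKM in DMD-Null, 2.96 in mdx and 2.27 in WT. Psmb10 and Psme2 came between Psmb8 and Psme1, at 9.19 and 9.26 FPKM in DMD-Null, 8.75 and 8.91 in mdx and 8.57 and 6.83 in WT, and their libraries overlapped in every group.

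Psme1 (ENSMUSG00000022216, chr14:55578123-55581528 on the plus strand) encodes the alpha subunit of the PA28 activator. It had 22.7, 26.6, 25.2 and 32.5 CPM in DMD-Null, 28.3, 29.5, 30.3 and 26.9 in mdx and 70.1, 35.1, 79.5 and 36.1 in WT. After TMM scaling every WT library was above every mutant library, with WT 1 and WT 3 well above WT 2 and WT 4. In FPKM the groups overlapped, with 13.2 in WT 2 and 13.67 in WT 4 against 13.69 in DMD-Null 4 and 13.87 in mdx 3. The log2 fold change was -0.94 ± 0.25 (SE; edgeR adjusted p = 0.016) in mdx and -1.04 ± 0.25 (edgeR adjusted p = 0.0116) in DMD-Null. When WT 1 and WT 3 were left out it was -0.34 in mdx, where the call was lost (edgeR adjusted p = 0.106), and -0.44 in DMD-Null, where it was kept (edgeR adjusted p = 0.0416). Psme1 was lower under all 24 alternative settings in both mutants, and was called in 24 of 24 in DMD-Null and 20 of 24 in mdx. The settings without a call in mdx included library totals alone (-0.43, edgeR adjusted p = 0.0696). Limma on log2(FPKM + 1) was another (-0.34, limma adjusted p = 0.0873).

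The deposited span of Psme1 shares 13 bases (chr14:55581516-55581528) with Emc9, a gene of the opposite strand that encodes an endoplasmic reticulum membrane complex subunit. Emc9 had 18.5 ± 3.27 CPM in DMD-Null, 18.7 ± 1.83 in mdx and 36.7 ± 17.8 in WT (SD, n = 4 each), with log2 fold changes of -0.97 in mdx and -0.99 in DMD-Null (edgeR adjusted p = 0.0275 and 0.0296), and -0.22 and -0.24, not called, once WT 1 and WT 3 were dropped (edgeR adjusted p = 0.398 and 0.368). The sources used here do not say whether reads were counted by strand. Of the 47 members, 22 overlap another gene, and for 7 that gene had a mean FPKM of at least 1: Psma2, Psmb7, Psmb9 (with Tap1), Psmc3, Psmd13, Psmd9 and Psme1. Their counts are uncertain to that extent.

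Psme2, the beta subunit of the same activator and a neighbour of Psme1 on chromosome 14, had 15.2, 16.3, 16.9 and 17.8 CPM in DMD-Null, 17.3, 14.3, 14.8 and 17.2 in mdx and 23.0, 14.3, 20.6 and 12.1 in WT. In WT 1 and WT 3 it was above all mutants, and in WT 2 and WT 4 below them, though WT 2 (14.33 CPM) was close to mdx 2 (14.35 CPM). On the log2 scale Psme2 differed by -0.14 ± 0.19 (SE) in mdx and -0.082 ± 0.19 in DMD-Null (edgeR adjusted p = 0.568 and 0.746), and 0.24 and 0.29 without those libraries (edgeR adjusted p = 0.22 and 0.142). Its direction also turned with the scaling, to 0.34 (mdx) and 0.39 (DMD-Null) in limma on log2(FPKM + 1), where both passed (limma adjusted p = 0.029 and 0.0172). Psme2 shares 59.3% of the 913 windows of 50 bases in its transcript with Psme2b, so reads of both may have been divided between them. Psme2b had log2 fold changes of -0.24 ± 0.20 and -0.29 ± 0.20 (SE; edgeR adjusted p = 0.338 in mdx and 0.269 in DMD-Null).

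Psmb8, which takes the place of Psmb5, changed direction with the WT libraries used. It had 8.16, 10.9, 9.34 and 11.5 CPM in DMD-Null, 10.7, 8.86, 10.3 and 10.6 in mdx and 20.1, 5.65, 15.6 and 5.33 in WT. The WT libraries fell on both sides, WT 1 and WT 3 above every mutant library and WT 2 and WT 4 below every one. With all libraries the log2 fold change was -0.20 ± 0.37 (SE) in mdx and -0.22 ± 0.37 in DMD-Null (edgeR adjusted p = 0.657 and 0.641). When WT 1 and WT 3 were left out it was 0.85 in mdx (edgeR adjusted p = 0.00488) and 0.83 in DMD-Null (edgeR adjusted p = 0.00549), a call in the opposite direction.

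Psmb9, the counterpart of Psmb6, had 3.04, 3.85, 3.49 and 5.7 CPM in DMD-Null, 4.68, 4.05, 3.97 and 5.65 in mdx and 5.97, 3.13, 4.88 and 3.64 in WT, from 180 to 403 reads a library. The groups overlapped throughout. For Psmb9 the log2 fold change was 0.061 ± 0.25 (SE) in mdx and -0.13 ± 0.25 in DMD-Null (edgeR adjusted p = 0.85 and 0.695). Psmb10, the counterpart of Psmb7, had 15.2, 16.2, 13.2 and 19 CPM in DMD-Null, 15.2, 14.6, 15.5 and 15.1 in mdx and 31.3, 13.2, 28.7 and 13.4 in WT. Again WT 1 and WT 3 alone were above the mutants. For Psmb10 the log2 fold change was -0.52 ± 0.27 in mdx and -0.45 ± 0.27 in DMD-Null (SE; edgeR adjusted p = 0.138 and 0.206), and 0.15 and 0.23 without those libraries (edgeR adjusted p = 0.488 and 0.31).

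**Figure D3:**
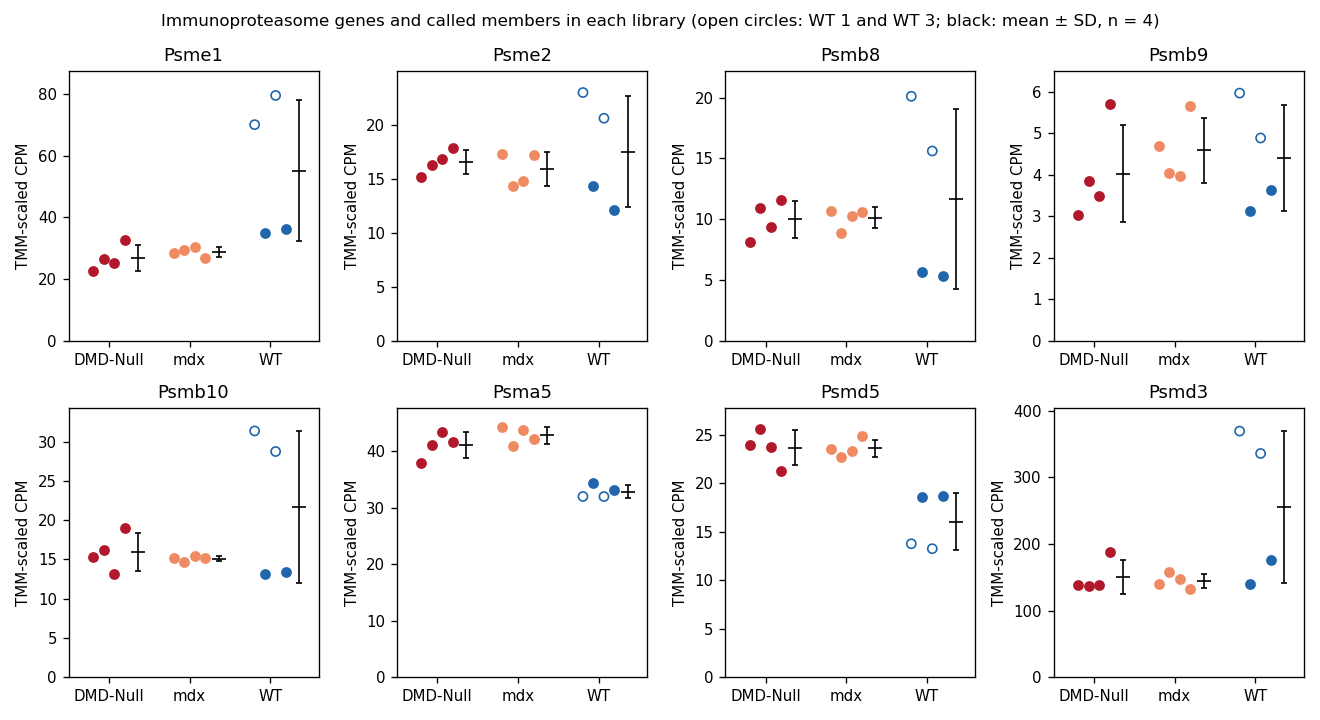
TMM-scaled CPM (vertical axis, linear from 0) in each library of DMD-Null, mdx and WT for the 5 immunoproteasome genes and Psma5, Psmd5 and Psmd3; open circles are WT 1 and WT 3, and black marks are the mean and SD of 4 libraries. WT 1 and WT 3 are the highest points for Psme1, Psme2, Psmb8, Psmb10 and Psmd3 and the lowest for Psmd5, the groups overlap for Psmb9, while the Psma5 values of all 4 WT libraries lie within 31.9 to 34.4 CPM.

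Ratios of the FPKM of an immune catalytic subunit to that of its constitutive counterpart, taken within a library, do not depend on its scaling; they compare mRNA levels. Psmb8 stood at 1.96% ± 0.178 of the FPKM of Psmb5 in DMD-Null, 2.19% ± 0.315 in mdx and 1.63% ± 0.403 in WT (SD, n = 4 each). Psmb9 stood at 1.84% ± 0.282 of Psmb6 in DMD-Null, 2.22% ± 0.552 in mdx and 1.45% ± 0.26 in WT. Psmb10 stood at 20.2% ± 3.39 of Psmb7 in DMD-Null, 19.1% ± 1.38 in mdx and 23.0% ± 9.3 in WT. Over the 9 comparisons of 3 ratios, none passed after Benjamini-Hochberg adjustment in a two-sided exact permutation test, whose smallest possible p with 4 libraries a group is 0.0286. A single ratio at that p adjusts to 0.257 over the 9 comparisons, so 1 ratio alone could not pass. The lack of a call therefore does not show that the ratios were unchanged.

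The smallest p was that of Psmb9 to Psmb6, at 2.25%, 1.86%, 1.79% and 2.99% in mdx against 1.39%, 1.72%, 1.12% and 1.58% in WT, without overlap; the log2 difference was 0.60 (exact permutation p = 0.0286, adjusted 0.257). With 0.1 added to each FPKM the groups overlapped (exact permutation p = 0.0571, adjusted 0.386). Psmb9 entered through the mutant libraries, as none in WT reached an FPKM of 1, so its higher ratio there is a description only. In DMD-Null the log2 difference of that ratio from WT was 0.35 (exact permutation p = 0.0857, adjusted 0.257), and with WT 1 and WT 3 left out the differences were 0.40 in mdx and 0.15 in DMD-Null. Psmb8 to Psmb5 differed by 0.44 in mdx and 0.30 in DMD-Null (exact permutation p = 0.0857 and 0.2, adjusted 0.257 and 0.429). Leaving out WT 1 and WT 3 made those differences 0.68 and 0.53 without overlap, in a design of 4 against 2 whose smallest possible p is 0.0667. Psmb10 to Psmb7 differed by -0.18 and -0.11 (exact permutation p = 0.543 and 0.743, adjusted 0.698 and 0.743), and by 0.34 and 0.41 without those WT libraries. This ratio was 33.1% in WT 1 and 28.7% in WT 3, against 15.5% in WT 2 and 14.7% in WT 4. The transcripts of the pair differ in GC content, at 56.5% for Psmb10 and 48.7% for Psmb7. The part of GC content in the ratio was not tested.

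The ratio of the activator's subunits is given as a description, because it was chosen after the values were seen. Psme1 reads per Psme2 read numbered 1.5, 1.63, 1.49 and 1.83 in DMD-Null, 1.64, 2.06, 2.05 and 1.56 in mdx and 3.05, 2.45, 3.86 and 2.98 in WT. Every WT library was above every mutant library, WT 2 and WT 4 included. The means were 1.61 ± 0.157 in DMD-Null, 1.83 ± 0.266 in mdx and 3.08 ± 0.583 in WT (SD, n = 4 each), a log2 difference from WT of -0.92 in DMD-Null and -0.75 in mdx. When WT 1 and WT 3 were left out it was -0.75 and -0.58, and with Psme2 and Psme2b summed -0.84 and -0.71. The ratio inherits the uncertainty of the overlap of Psme1 with Emc9.

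**Figure D4:**
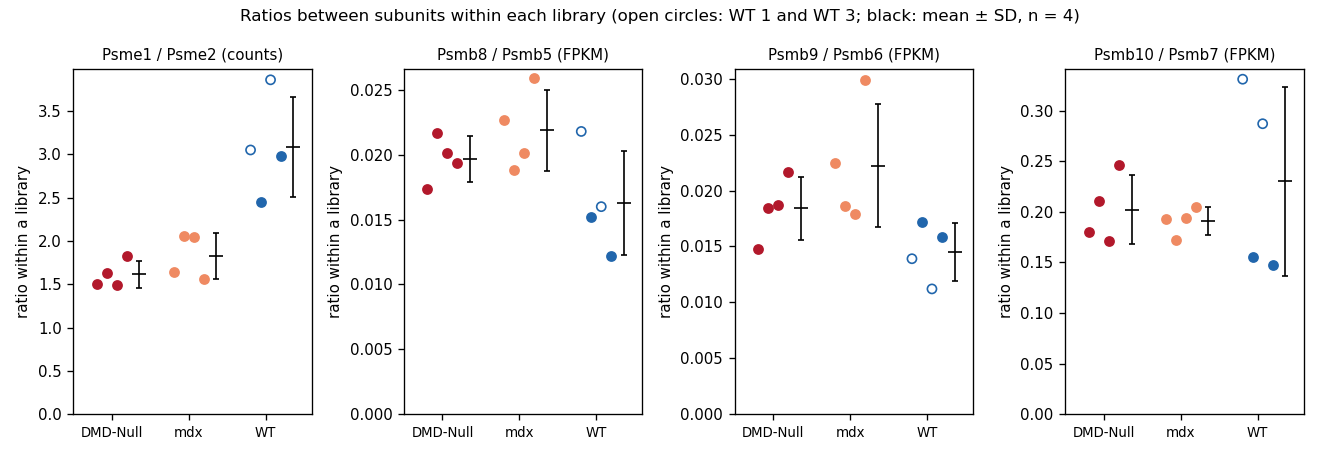
Ratio within each library (vertical axes, linear from 0) of Psme1 to Psme2 in counts and of Psmb8 to Psmb5, Psmb9 to Psmb6 and Psmb10 to Psmb7 in FPKM, for DMD-Null, mdx and WT; open circles are WT 1 and WT 3, and black marks are the mean and SD of 4 libraries. The Psme1 to Psme2 ratio of each WT library, 2.45 to 3.86, lies above all mutant libraries, which reach 2.06.

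Over the 47 members the log2 fold change against WT followed the GC content of the transcript, which ran from 37.0% (Psmc6) to 58.3% (Psmd3). Pearson's r across members, which share their libraries and are not independent, was -0.81 in mdx and -0.81 in DMD-Null. The 8 most AT-rich members, Psma1 to Psma4, Psmc6, Psmd10, Psmd14 and Psme4, had medians of 0.25 in mdx and 0.29 in DMD-Null, and the 18 most GC-rich ones had medians of -0.38 and -0.37. Without WT 1 and WT 3, r was 0.21 and 0.27, and the medians were -0.13 and -0.15 for the AT-rich members and 0.0019 and 0.022 for the GC-rich ones. Psma5 (49.2% GC) and Psmd5 (45.1%) had higher values than the members within 1 percentage point of their GC content (8 for Psma5, and Psma4 alone for Psmd5), and Psme1 (54.9%) a lower value than the 6 within that distance, in both mutants and in both sets of libraries. These 3 were picked out after their values were seen, and Psme1 had the lowest value of all 47 members each time. Their place among these neighbours is thus a description and not a test.

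**Figure D5:**
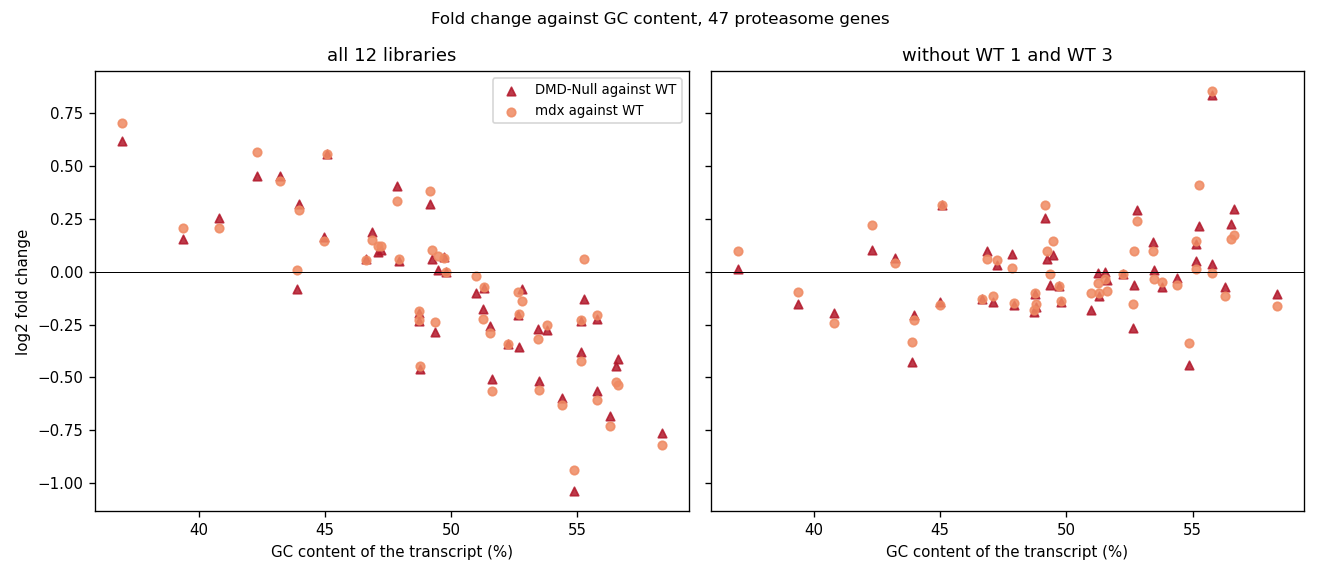
Log2 fold change against WT (vertical axis) of each of the 47 members by the GC content of its longest protein-coding transcript in percent (horizontal axis), for DMD-Null (triangles) and mdx (circles), with all 12 libraries on the left and without WT 1 and WT 3 on the right. Values fall with GC content on the left (r = -0.81 in each mutant) and show no such fall on the right (r = 0.27 in DMD-Null and 0.21 in mdx).

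DMD-Null and mdx muscle were also compared directly. The WT libraries are not among the levels compared, but all 12 libraries were fitted in 1 model. The SE and p-values of this comparison therefore rest in part on the spread within WT, WT 1 and WT 3 included. When only the 8 libraries compared were fitted, again no member passed. None of the 47 members passed in edgeR (0.0176% of all tested genes called), in DESeq2 or in limma, and 0 had an unadjusted p under 0.05 in edgeR. The log2 fold changes lay between -0.19 (Psmb9) and 0.12 (Psmb5), with a median of -0.0013 beside 0.007 for all genes. By role the medians were 0.0031 for the 20S core, 0.028 for the 19S particle and -0.018 for the immunoproteasome genes. Psme1 differed by -0.10 ± 0.25 (SE), Psmb8 by -0.018 ± 0.37 and Psma5 by -0.061 ± 0.098 (edgeR adjusted p = 1 for each). No member's groups were free of overlap, against 2.24% of all genes (1.22% higher, 1.02% lower).

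Genes that feed the proteasome and control its genes were read from fixed lists. Of 16 tested genes of ubiquitin supply and delivery, 1 was higher and 4 lower in mdx, and 0 higher and 3 lower in DMD-Null. These are 31.2% and 18.8% of the list, below the 35.2% and 28.5% called among all genes. Ubqln4, a shuttle that carries ubiquitylated proteins to the proteasome, fell to 97.7 ± 7.16 CPM in DMD-Null and 94.2 ± 4.71 in mdx, against 160 ± 32.0 in WT (SD, n = 4 each). Ubqln4 changed by -0.72 ± 0.14 on the log2 scale (SE; edgeR adjusted p = 0.00471) in DMD-Null and -0.77 ± 0.14 (edgeR adjusted p = 0.00288) in mdx, and it kept both calls without WT 1 and WT 3, at -0.48 and -0.53 (edgeR adjusted p = 0.00719 and 0.00411). Bag6, a chaperone of mislocalised proteins, fell by 1.01 in DMD-Null and 1.04 in mdx (edgeR adjusted p = 0.0345 and 0.0272), and stood at -0.17 and -0.19 without WT 1 and WT 3, not called.

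Of 11 tested proteasome-associated factors, 18.2% were called in mdx and 9.09% in DMD-Null, again below the shares of all genes. Akirin2, which carries proteasomes into the nucleus, rose in mdx by 0.84 ± 0.25 (SE; edgeR adjusted p = 0.0229), and Adrm1, a ubiquitin receptor of the 19S particle, fell by 0.85 ± 0.26 in each mutant (edgeR adjusted p = 0.0261 in mdx and 0.0298 in DMD-Null). Without WT 1 and WT 3, Akirin2 kept its call in mdx (0.39, edgeR adjusted p = 0.0321) and Adrm1 lost its calls (-0.25 in each, edgeR adjusted p = 0.288 in mdx and 0.295 in DMD-Null). Ecpas, a 19S-bound adaptor, stood at 176 ± 14.5 CPM in DMD-Null, 176 ± 6.72 in mdx and 177 ± 49.7 in WT, and was called lower in both mutants without WT 1 and WT 3 (-0.35 in DMD-Null and -0.34 in mdx, edgeR adjusted p = 0.0272 and 0.0279).

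Of 9 tested regulators of proteasome genes, 2 were higher and 1 lower in mdx and 1 higher and 1 lower in DMD-Null, 33.3% and 22.2% of the list against 35.2% and 28.5% of all genes. Nfe2l2, an activator of stress genes, rose by 0.95 ± 0.26 in mdx and 0.88 ± 0.26 in DMD-Null (edgeR adjusted p = 0.0162 and 0.0249), and Keap1, its repressor, fell by 0.58 ± 0.17 and 0.49 ± 0.17 (edgeR adjusted p = 0.0228 and 0.0477). Foxo3, a factor of muscle atrophy, rose by 0.58 ± 0.20 in mdx (edgeR adjusted p = 0.0395). Without those WT libraries the 5 calls were lost (edgeR adjusted p = 0.0627 to 0.344). Nfe2l1, the main activator of proteasome genes, was at 629 ± 68.2 CPM in DMD-Null, 630.0 ± 16.1 in mdx and 644 ± 154 in WT. It was not called with all libraries, and was called lower in both mutants without WT 1 and WT 3 (-0.34 in DMD-Null and -0.33 in mdx, edgeR adjusted p = 0.0462 and 0.0467). Foxo1, another atrophy factor, was also called lower in mdx without them (-0.72, edgeR adjusted p = 0.00564; -0.45 and 0.0785 with all libraries) and not in DMD-Null (-0.31, edgeR adjusted p = 0.174).

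MHC class I presentation uses the peptides that immunoproteasomes make. Of 10 tested genes of this pathway, 4 rose and 0 fell in mdx, and 3 rose and 0 fell in DMD-Null; without WT 1 and WT 3 the counts were 6 in mdx and 8 in DMD-Null higher with 0 lower. Of all tested genes, 15% were higher in mdx and 12.9% in DMD-Null, and 12.4% and 12% without WT 1 and WT 3. B2m, the light chain of MHC class I, rose to 162 ± 8.04 CPM in DMD-Null and 179 ± 16.5 in mdx, against 90.5 ± 17.0 in WT (SD, n = 4 each), a difference of 0.84 ± 0.14 on the log2 scale (SE; edgeR adjusted p = 0.00156) in DMD-Null and 0.98 ± 0.14 (edgeR adjusted p = 0.00052) in mdx. Pdia3, of the peptide-loading complex, rose by 1.25 ± 0.24 in DMD-Null and 1.27 ± 0.24 in mdx (edgeR adjusted p = 0.00326 and 0.00269). H2-K1, a heavy chain, rose by 0.40 ± 0.14 in mdx (edgeR adjusted p = 0.0371), and Canx, a folding chaperone, by 0.70 ± 0.24 in each mutant (edgeR adjusted p = 0.0466 in DMD-Null and 0.0412 in mdx). B2m, Pdia3 and H2-K1 kept these calls without WT 1 and WT 3, and Canx did not (0.26 in each, edgeR adjusted p = 0.195 in DMD-Null and 0.183 in mdx).

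Of 12 tested genes of interferon-gamma signalling, 4 rose and 1 fell in mdx and 3 rose and 1 fell in DMD-Null, 41.7% and 33.3% of the list beside 35.2% and 28.5% of all genes. Ifngr1, a receptor chain, rose by 0.95 ± 0.19 in DMD-Null (SE; edgeR adjusted p = 0.00456) and 1.02 ± 0.19 in mdx (edgeR adjusted p = 0.00278). Irf1, the factor that turns on immunoproteasome genes, rose by 0.49 ± 0.16 in DMD-Null and 0.46 ± 0.16 in mdx (edgeR adjusted p = 0.044 and 0.0469), and Gbp2, a GTPase induced by interferon, rose by 0.73 ± 0.22 in mdx (edgeR adjusted p = 0.0263). Socs1, a feedback inhibitor of the pathway, fell by 2.30 ± 0.53 in DMD-Null and 1.70 ± 0.52 in mdx (edgeR adjusted p = 0.00953 and 0.027). Without WT 1 and WT 3, Ifngr1, Irf1 and Socs1 kept these calls and Gbp2 did not (edgeR adjusted p = 0.163). Between the mutants 0 genes of these 5 lists passed; H2-D1, Jak1, Ecpas and Nfe2l1, each the tested gene of highest CPM in its list, a ranking that does not allow for gene length, differed by -0.11 to 0.069 on the log2 scale.

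Markers of other cells moved beside these values. Of 10 macrophage markers, 9 were tested, and 8 rose in DMD-Null and 9 in mdx; their summed CPM was 443 to 880 in DMD-Null, 731 to 933 in mdx and 106 to 207 in WT, with none at 0 in all libraries. The 8 T and NK cell markers summed to 2.32 to 3.34 CPM in DMD-Null, 2.61 to 5.15 in mdx and 0.854 to 1.42 in WT, and the 5 dendritic cell markers to 10.5 to 21.8, 19.7 to 21.3 and 1.71 to 3.42 CPM in that order of groups. The 4 B cell markers summed to at most 0.726, 1.83 and 0.822 CPM, and 5 endothelial markers to 231 to 265, 220 to 279 and 274 to 303 CPM. The 7 muscle fibre markers, which are the defining genes of the labelled tissue, summed to 83500 to 120000 CPM in DMD-Null, 81000 to 110000 in mdx and 91800 to 290000 in WT, where WT 1 and WT 3 had the highest sums, 290000 and 255000 CPM; 4 of the 7 were called lower in each mutant, and 0 without WT 1 and WT 3. The 5 liver markers summed to 46.2 to 201, 88.0 to 154 and 576 to 890 CPM, and the 4 lung markers to 0 to 0.108 CPM in DMD-Null, 11.2 to 13.5 in mdx and 0.0688 to 0.502 in WT. Sftpc and Scgb1a1, lung epithelial genes of that list, were the 2 genes of all those tested that passed between DMD-Null and mdx, both lower in DMD-Null (edgeR adjusted p = 0.0024 and 0.0129). The part of any of these cells in the levels of the proteasome, MHC class I or interferon genes was not tested.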

How the data were processed

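Poly(A) RNA of tibialis anterior was sequenced from 4 DMD-Null, 4 mdx and 4 WT libraries. The authors deposited, per gene and library, a raw read count and an FPKM, per the file headers. The submitters' processing notes name cutadapt 1.10, FastQC 0.10.1, HISAT2 2.0, StringTie 1.3.4 and GRCm39, with no role for each; the sources used here do not say whether reads were counted by strand, and the labels' protocols name a stranded library kit. Of 30155 genes shared with a GRCm38 annotation, 99.7% have the same start or end, as have all 49 members, so coordinates are given on GRCm38. GC content is that of the longest protein-coding transcript (99.9297% of tested genes have one).

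Genes with an FPKM of at least 1 in at least 4 libraries were tested (11376 kept, 18863 removed). Counts were scaled by TMM and fitted over all 12 libraries with edgeR's quasi-likelihood test (edgeR 4.0.16, limma 3.58.1, DESeq2 1.42.0, R 4.3.3), with Benjamini-Hochberg adjustment over all tested genes and a threshold of 0.05. The SE is the absolute log2 fold change divided by the square root of F. The script was tested on simulated data. Total counts of 60693078 to 68054627 set the counting precision, which does not cover variation between animals.

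Members and lists were chosen with earlier results of these data known. Named members were the 5 immunoproteasome genes, Psmb5 to Psmb7, Psme3, Psme4 and Psmf1, and the genes of smallest p in each role, 25 in all; up to 3 genes a list and comparison were named from the pathway lists, those past the threshold first and otherwise the one of highest CPM. Other members are named where their values are described. The ratio of Psme1 to Psme2 was added after seeing the data. Ratios of catalytic subunits used an exact two-sided permutation test. The 24 alternative settings were median-of-ratios scaling, library totals alone, offsets from a loess fit on GC content, a filter at a mean FPKM of 5, no filter, DESeq2, limma on log2(FPKM + 1) and on log2(FPKM + 0.1), the 8 libraries compared only, leaving out WT 1 and WT 3, leaving out WT 1, WT 3 and DMD-Null 4, the replicate number as a block, and each of the 12 libraries left out. Some genes of the fixed pathway lists stayed in the counts of their list but are not reported here.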

Additional observations from a re-analysis of the deposited data

Results flagged for a closer look

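Of 141 groups of 4 libraries, 3 for each of the 47 members, tested for a library far from the other 3, 11 stood out by Dixon's ratio, where chance marks about 5% of independent groups. The members share their libraries, so these groups are not independent. No WT library was marked, but the ratio looks for 1 library and can miss 2 that stand apart together, as WT 1 and WT 3 did. In DMD-Null 4, Psmc3 at 243.0 CPM, Psmc5 at 138.9 CPM, Psmd3 at 188.3 CPM, Psmd4 at 157.9 CPM and Psmd8 at 216.1 CPM were high, and Psma1 at 53.15 CPM and Psmc6 at 68.91 CPM were low. DMD-Null 4 was also the mutant library whose counts increased with GC content (rho 0.461); its part in these values was not tested. Psmb7 was high in DMD-Null 1, at 169.4 CPM, and Psmg4 was low in DMD-Null 2, at 2.809 CPM. In mdx 4, Psmc3 at 183.5 CPM and Psmd1 at 116.2 CPM were low.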

How the results depend on the processing

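The number of members called depended on the setting, as did the share of all genes called. That share is given above for library totals, GC-corrected offsets, limma on log2(FPKM + 1) and the fit without WT 1 and WT 3. It is also given for the fits without WT 2 or WT 4 and, in DMD-Null against WT, without DMD-Null 2. For median-of-ratios scaling, DESeq2, the 8 libraries compared and the replicate block it is not given. Those counts are therefore not results about the members. In mdx against WT, 4 members were called, against 7 with median-of-ratios scaling, 9 with library totals alone, 14 with GC-corrected offsets, 13 in DESeq2, 25 in limma with either pseudocount, 2 with only the 8 libraries compared and 2 without WT 1 and WT 3. In DMD-Null against WT, 3 were called, against 5, 12, 7, 9 and 22 under the first 5 of these, in the same order, and 1 with only the 8 libraries compared. Leaving out 1 library gave 3 to 21 members for mdx and 1 to 22 for DMD-Null, with the highest counts without WT 2. In DMD-Null against mdx the count was 0 under all 24 settings. Same-numbered libraries of different genotypes correlated at -0.587 to 0.217 in their deviations from the group means. No pairing by number was seen in these values, to which WT 1, WT 3 and DMD-Null 4, which stood apart, also contribute. Whether the numbers pair the samples is thus not settled. With the replicate number as a block 2 members were called in mdx and 2 in DMD-Null.

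Over all 47 members, directions turned for 15, each time with a call on 1 side. In limma with pseudocounts of 1 and 0.1, the mdx values became 0.26 and 0.27 for Psma7, 0.44 and 0.45 for Psmb2, 0.28 and 0.29 for Psmc2, 0.40 and 0.40 for Psmd2, 0.38 and 0.38 for Psmd8, 0.22 and 0.30 for Psmd9, 0.34 and 0.38 for Psme2 and 0.45 and 0.48 for Psme3, and the DMD-Null values 0.30 and 0.32 for Psma7, 0.27 and 0.29 for Psmc2, 0.39 and 0.40 for Psmd2, 0.39 and 0.44 for Psme2 and 0.45 and 0.48 for Psme3. With library totals alone Psme2 became 0.40 in DMD-Null. These settings raised the median of all genes. Psmb8 became 0.85 in mdx and 0.83 in DMD-Null without WT 1 and WT 3, and 0.87 and 0.77 without DMD-Null 4 as well. With GC-corrected offsets, mdx values became -0.61 for Psma2, -0.45 for Psma3, -0.32 for Psma4, -0.31 for Psma6, -0.20 for Psmd12 and -0.52 for Psme4, and Psma3 became -0.22 in mdx without WT 1, WT 3 and DMD-Null 4. The cause was not tested. Of all 3366 single-gene values under an alternative, these 38 included, 2764 kept direction and side of the threshold, 363 turned sign without a call on either side, 162 passed only under the alternative and 39 no longer passed. Psmg4, with 147 to 245 reads a library, and Psmb9, with 180 to 403, had the fewest reads of the members.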
